A study of Mus musculus with 30 samples.

Results

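The aminoacyl-tRNA synthetase genes of the mouse heart were followed, 36 genes in all, among 78258 genes counted in a postpartum study and 56691 in a diet study. They were taken by symbol from a list of 20 genes for cytosolic enzymes and 16 for mitochondrial ones, and all 36 were found in both tables. The hearts came from wild-type (WT) mice and from mice whose CHCHD10, a mitochondrial intermembrane space protein, carries the point mutation p.S55L; the zygosity is not given in the sources used here. Naive WT and naive S55L mice were aged 100 days (n = 5 libraries each), and postpartum (PP) WT and PP S55L mice had been bred at 65 days and were killed on postpartum day 0 (n = 4 libraries each). In the diet study all mice were S55L and postpartum, and during breeding ate either the control diet or one with EH301, a supplement of nicotinamide riboside and pterostilbene (n = 4 libraries each). The libraries were 3' mRNA libraries of whole heart, so each read marks the end of a transcript.

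An aminoacyl-tRNA synthetase joins an amino acid to its tRNA, which then carries it to the ribosome. Mammals use separate nuclear genes for most of the cytosolic and mitochondrial enzymes, and the mitochondrial enzymes serve the translation of the few proteins encoded by mitochondrial DNA. Gars and Kars are exceptions, since each makes both the cytosolic and the mitochondrial enzyme, and a single cytosolic gene, Eprs, serves both glutamate and proline. Many cytosolic synthetase genes are known targets of ATF4, a transcription factor made, for example, when amino acids or tRNA charging run short. ATF4 binds composite C/EBP-ATF elements together with C/EBP proteins.

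Several facts of the series touch every value. WT PP columns 1 and 2 were identical for every gene, as were S55L PP columns 1 and 2, and each pair was used as 1 library. The counts of control diet column 5 were those of EH301 diet column 6, and both were left out. Reads on genes per library numbered 1418715 to 2949993 in WT and 2755500 to 5131316 in S55L of the postpartum study, and 466651 to 3048461 in the diet study. By the well codes in the column names, the WT libraries stood in plate column 1 apart from WT PP 1, in column 2, and the S55L libraries stood in columns 2 and 3. Control diet library 1 (466651 reads) and EH301 diet library 8 (1141997 reads) stood apart from the other diet libraries. Cardiomyocyte markers were present in every group, with a summed level of at least 36600 reads per 1000000 reads on genes (CPM).

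The promoters of 5 cytosolic members are shown first, because each holds a match to the composite element TGATGNAA, searched on both strands from 250 bases before to 50 after the start. Each line runs 5' to 3' on the gene's strand from 170 bases before to 30 after the start, taken from the RefSeq table of build GRCm38.p6. Capitals mark the match, which reads as the reverse complement where it lies on the opposite strand. Qars is shown as the member that was lower in naive S55L hearts; its window held no match. Aars (chr8:111033672-111033871, plus strand) has 2 matches, Gars lies at chr6:55037831-55038030, plus strand, Iars at chr13:49681960-49682159, plus strand, Tars at chr15:11399629-11399828, minus strand, Yars at chr4:129189733-129189932, plus strand and Qars at chr9:108507835-108508034, plus strand.
Aars: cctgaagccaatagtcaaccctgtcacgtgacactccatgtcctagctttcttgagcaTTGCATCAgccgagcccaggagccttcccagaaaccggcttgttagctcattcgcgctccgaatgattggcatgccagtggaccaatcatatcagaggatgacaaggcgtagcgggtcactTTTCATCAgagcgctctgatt
Gars: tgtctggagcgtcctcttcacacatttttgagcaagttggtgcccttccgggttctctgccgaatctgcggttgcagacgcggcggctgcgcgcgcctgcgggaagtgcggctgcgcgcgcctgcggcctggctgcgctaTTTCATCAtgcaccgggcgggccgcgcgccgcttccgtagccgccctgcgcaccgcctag
Iars: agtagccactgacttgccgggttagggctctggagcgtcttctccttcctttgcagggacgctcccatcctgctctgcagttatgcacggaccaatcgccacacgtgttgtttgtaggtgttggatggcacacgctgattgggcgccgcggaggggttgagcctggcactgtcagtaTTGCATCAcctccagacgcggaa
Tars: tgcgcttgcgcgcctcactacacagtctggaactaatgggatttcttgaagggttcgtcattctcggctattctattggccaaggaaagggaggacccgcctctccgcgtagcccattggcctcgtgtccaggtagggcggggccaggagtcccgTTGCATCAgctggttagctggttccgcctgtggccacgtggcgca
Yars: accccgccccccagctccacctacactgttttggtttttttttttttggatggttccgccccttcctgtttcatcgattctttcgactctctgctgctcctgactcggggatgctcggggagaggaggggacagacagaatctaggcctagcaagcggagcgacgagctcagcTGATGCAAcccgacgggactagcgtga
Qars: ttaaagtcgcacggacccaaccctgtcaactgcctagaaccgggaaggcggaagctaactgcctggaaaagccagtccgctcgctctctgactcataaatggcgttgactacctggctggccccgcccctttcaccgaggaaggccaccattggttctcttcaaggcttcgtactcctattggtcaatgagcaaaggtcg

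A window was searched for 13 cytosolic and 14 mitochondrial members, of which Aars2 had 2 windows. Windows on a chromosome that was left out for the members were kept among all promoter windows. TGATGNAA occurred in 5 of the 13 cytosolic members and 0 of the 14 mitochondrial members, against 3.97% of 32851 promoter windows of the same length. All 5 of those members, Aars, Gars, Iars, Tars and Yars, were among the 9 windowed cytosolic members that were higher in naive S55L hearts. Eprs, Farsb, Mars1 and Sars were also windowed and higher, and had no match. Cars, Hars, Lars, Nars, Rars and Vars were higher but had no window in the search. The 4 windowed cytosolic members that were not higher, Dars, Farsa, Kars and Qars, had no match either. A match describes the letters of the window and does not show that a factor binds there.

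Most cytosolic synthetases were higher in naive S55L than in naive WT hearts, while most mitochondrial ones were not called. Of the 20 cytosolic members, 15 were higher and 1 was lower at an adjusted p below 0.05 (edgeR quasi-likelihood test, Benjamini-Hochberg adjustment over 11945 genes), and 4 were not called. Of the 16 mitochondrial members, 1 was higher and 2 were lower. Among all genes tested, 21.9% were called higher and 21.6% lower. The median log2 fold change was 1.29 over the cytosolic members (range -0.49 to 2.67) and -0.33 over the mitochondrial members (range -0.63 to 0.61), beside -0.0039 over all genes tested. The S55L and WT libraries did not overlap for 13 cytosolic members that were higher and 1 that was lower, and for 2 mitochondrial members, both lower. Over all genes tested, 16.8% were higher and 15.4% lower without overlap.

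Markers of other heart cells moved with this comparison. All 12 macrophage markers were higher in naive S55L hearts, with a summed level of 304 to 379 CPM in WT naive and 1610 to 1960 in S55L naive libraries. Of the fibroblast markers 6 of 9 were higher (1110 to 1470 against 1850 to 2520 CPM), and 9 of 10 cardiomyocyte markers were lower. Endothelial markers were lower for 3 of 7, smooth muscle and pericyte markers lower for 5 and higher for 1 of 7, and erythroid markers lower for 3 of 5. The summed level of the smooth muscle and pericyte markers went the other way, with 616 to 778 CPM in WT naive and 1530 to 3540 in S55L naive libraries. The shares over all genes tested were 21.9% higher and 21.6% lower. The endothelial and erythroid lists are too short to be set apart from these shares. Of the adipocyte markers 1 of 4 was tested and was not called, none of the 4 lymphocyte markers passed the filter on low counts, and Ucp1 and Cd79a were at 0 in every group of the postpartum study. Their part in the synthetase values was not tested, and in whole hearts fewer cells of a type cannot be told apart from less RNA per cell.

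**Figure D1:**
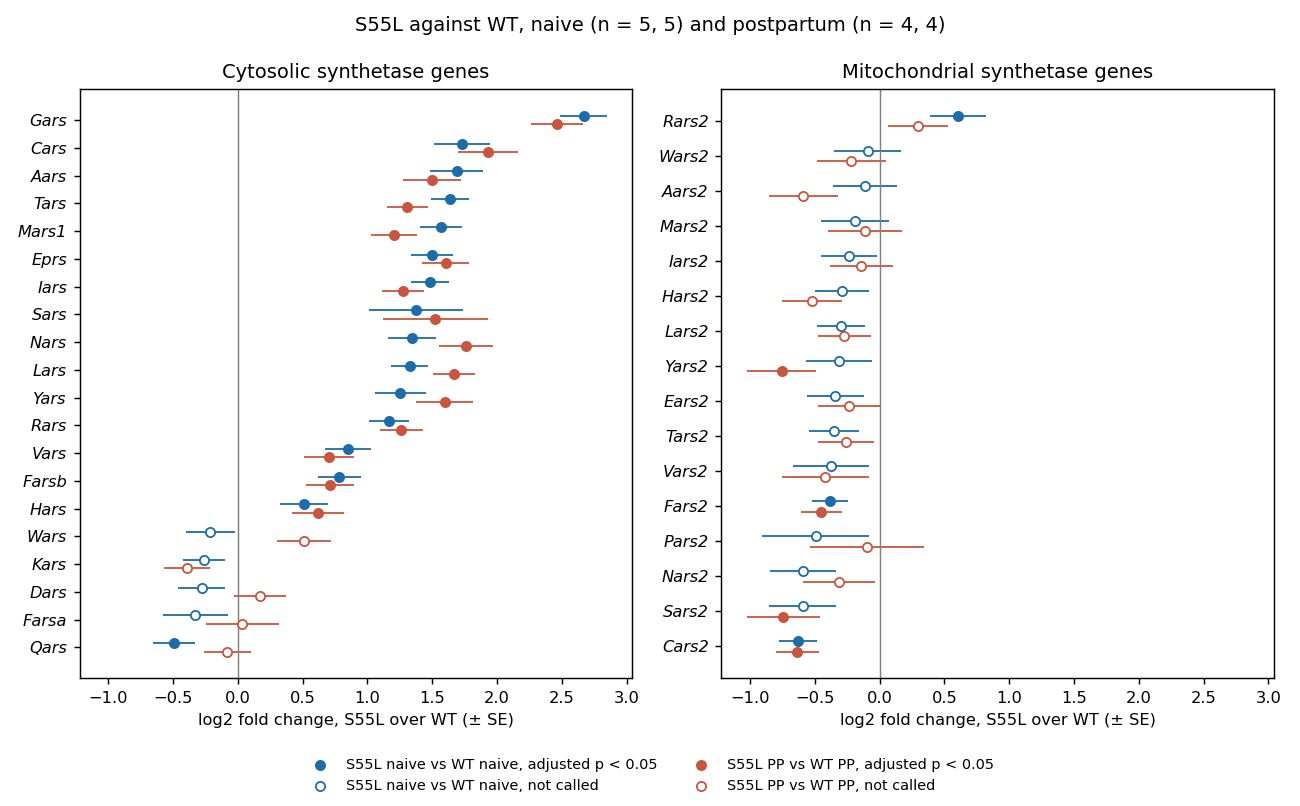
Log2 fold change of each synthetase gene in S55L over WT hearts, naive (blue, n = 5 and 5) and postpartum (red, n = 4 and 4), with bars for the standard error; filled circles are called at an adjusted p below 0.05. In the naive comparison 15 cytosolic genes lie to the right with filled circles, and 1 mitochondrial gene, Rars2, does.

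Gars, the glycyl-tRNA synthetase for both compartments, had the lowest adjusted p of the members. It stood at 44.3, 67.0, 61.4, 67.7 and 52.9 CPM in WT naive libraries 1 to 5 and at 488, 383, 301, 384 and 302 CPM in S55L naive libraries 1 to 5. Every S55L naive library lay above every WT naive library, and the log2 fold change was 2.67 ± 0.18 (SE), or 6.35-fold, with an adjusted p of 7.3e-12. The Gars window holds the TGATGNAA match shown above, ending 23 bases before the start, and its part in these values was not tested.

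Tars, the threonyl enzyme, stood at 27.8, 22.9, 18.1, 31.0 and 22.3 CPM in WT naive and 84.4, 73.4, 71.1, 77.6 and 74.1 CPM in S55L naive libraries. The groups did not overlap, with a log2 fold change of 1.64 ± 0.15 (adjusted p = 1e-09). Tarsl2, a threonyl synthetase-like gene, went the other way, with a log2 fold change of -1.18 (adjusted p = 3.9e-05). Iars, the isoleucyl enzyme, stood at 23.7, 27.8, 21.6, 29.8 and 25.2 CPM in WT naive and 78.2, 72.2, 66.2, 67.9 and 72.8 CPM in S55L naive libraries. Its groups did not overlap either (log2 fold change 1.48 ± 0.15, adjusted p = 9.2e-09).

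Mars1, the methionyl enzyme, which also charges the initiator tRNA, stood at 22.7, 31.8, 36.3, 43.6 and 36.1 CPM in WT naive and 129.9, 110.1, 85.6, 92.7 and 86.1 CPM in S55L naive libraries. Each S55L library lay above each WT library, and the log2 fold change was 1.56 ± 0.16 (adjusted p = 1.6e-08). Lars, the leucyl enzyme, stood at 85.5, 108, 104, 88.3 and 94.5 CPM in WT naive and 272, 229, 191, 256 and 253 CPM in S55L naive libraries, without overlap (log2 fold change 1.33 ± 0.14, adjusted p = 2.6e-08). Eprs, the joined glutamyl and prolyl enzyme, stood at 102, 104, 82.5, 104 and 102 CPM in WT naive and 376, 296, 234, 262 and 232.4 CPM in S55L naive libraries. Every S55L library was above every WT library (log2 fold change 1.50 ± 0.16, adjusted p = 3.4e-08).

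The other 9 cytosolic members that were higher spanned log2 fold changes from 0.51 for Hars, the histidyl enzyme, to 1.73 for Cars, the cysteinyl enzyme. Aars (alanine, 1.69 ± 0.20), Sars (serine, 1.37 ± 0.36), Nars (asparagine, 1.34 ± 0.19), Yars (tyrosine, 1.25 ± 0.20) and Rars (arginine, 1.17 ± 0.15) lay above 1, and Vars (valine, 0.85 ± 0.17) and Farsb (0.78 ± 0.17) below it. Hars and Sars were called although their libraries overlapped between groups; the Hars call (adjusted p = 0.029) was lost on leaving out WT naive library 3, 4 or 5 or S55L naive library 1, with an adjusted p of 0.067 to 0.088. The phenylalanyl enzyme is built from an alpha subunit, Farsa, and a beta subunit, Farsb. Farsb was called higher (adjusted p = 0.00043), whereas Farsa had a log2 fold change of -0.33 ± 0.25 and was not called (adjusted p = 0.3). Farsa rested on 109 reads in the WT naive and 230 in the S55L naive group. It averaged 9.88 CPM in S55L PP of the postpartum study but 144 CPM in the control diet group, and Farsb averaged 84.1 and 452 CPM. The reason for these gaps between the studies was not tested.

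Qars, the glutaminyl enzyme, was the cytosolic member called lower. It stood at 38.6, 33.5, 31.6, 41.9 and 31.2 CPM in WT naive and 25.6, 27.0, 29.7, 22.2 and 21.1 CPM in S55L naive libraries, without overlap (log2 fold change -0.49 ± 0.16, adjusted p = 0.017). With total counts as the scale Qars had a log2 fold change of -0.24 and an adjusted p of 0.25, and without WT naive library 4 its adjusted p was 0.054. Dars (aspartate, -0.28 ± 0.18), Kars (lysine, -0.26 ± 0.16) and Wars (tryptophan, -0.21 ± 0.19) were not called, with adjusted p of 0.22, 0.2 and 0.38.

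Synthetases fall into 2 catalytic classes of unrelated fold, and 8 of the cytosolic members sit in the multisynthetase complex, held together by the scaffold proteins Aimp1, Aimp2 and Eef1e1. Of the class I cytosolic members 8 of 10 were higher (median log2 fold change 1.29), and of class II 7 of 10 (median 1.06). Of the members in the complex 5 of 8 were higher and Qars was lower, with Dars and Kars not called (median 1.25). Of the 12 outside it 10 were higher (median 1.30). The scaffold Eef1e1 was higher, with a log2 fold change of 0.83 (adjusted p = 0.023), and Aimp1 (-0.25) and Aimp2 (0.25) were not called.

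**Figure D2:**
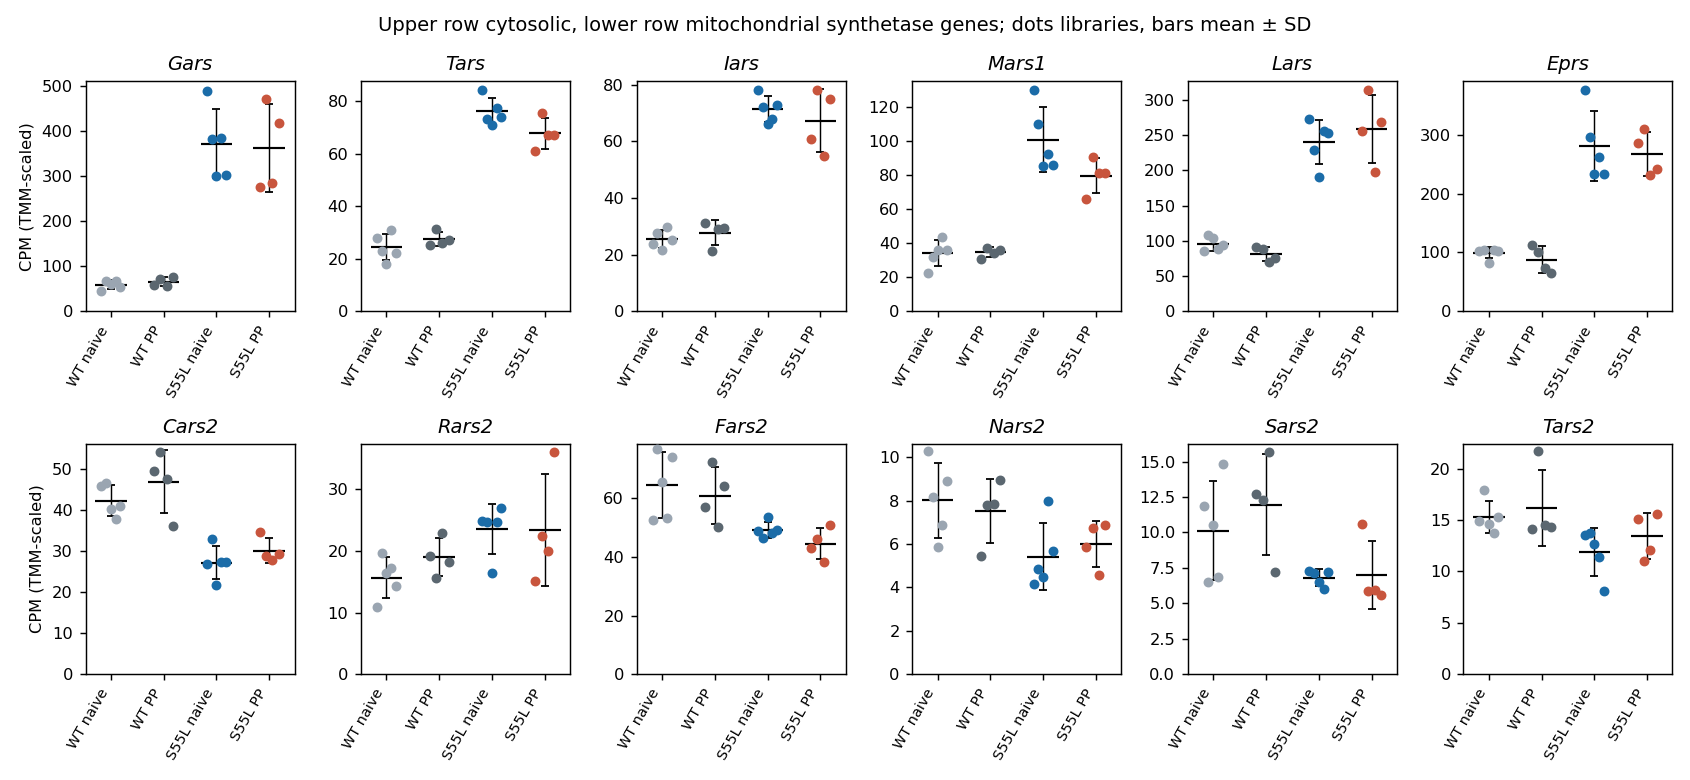
TMM-scaled CPM (vertical axis, from 0) of the 6 cytosolic (upper row) and 6 mitochondrial (lower row) members with the lowest adjusted p between naive S55L and naive WT, one dot per library in the 4 groups of the postpartum study, with the mean and SD. In the upper row no S55L library falls within the range of its WT group; in the lower row the groups overlap in most panels, and Cars2 is lower without overlap.

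Few mitochondrial members were called. Cars2, the cysteinyl enzyme, stood at 45.8, 46.5, 40.4, 37.9 and 41.1 CPM in WT naive and 26.9, 32.9, 21.6, 27.3 and 27.5 CPM in S55L naive libraries. The groups did not overlap, and the log2 fold change was -0.63 ± 0.15 (adjusted p = 0.0012). Fars2, the single-chain phenylalanyl enzyme, stood at 52.5, 76.8, 65.5, 53.4 and 74.2 CPM in WT naive and 49.0, 46.5, 53.7, 48.0 and 49.3 CPM in S55L naive libraries. These ranges overlapped, since S55L library 3 was above WT libraries 1 and 4, and the log2 fold change was -0.38 ± 0.14 (adjusted p = 0.03). The Fars2 call was lost on total counts (adjusted p = 0.49) and on leaving out WT naive library 2, 3 or 5 or S55L naive library 2 or 4 (0.052 to 0.09).

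Rars2, the arginyl enzyme, was the mitochondrial member called higher. It stood at 10.8, 19.6, 16.4, 17.2 and 14.3 CPM in WT naive and 24.8, 24.7, 16.5, 24.7 and 27.0 CPM in S55L naive libraries. S55L library 3 lay within the WT range and the other 4 above it, and the log2 fold change was 0.61 ± 0.22 (adjusted p = 0.026). The call was lost on leaving out WT naive library 1 or 5 or S55L naive library 5, with an adjusted p of 0.057 to 0.088.

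Nars2, Sars2 and Tars2 came next by adjusted p and were not called. Nars2, for asparagine, stood at 10.3, 8.16, 5.85, 6.88 and 8.91 CPM in WT naive and 4.17, 4.82, 4.46, 7.96 and 5.67 CPM in S55L naive libraries, which overlapped (log2 fold change -0.59 ± 0.25, adjusted p = 0.061). Sars2, for serine, stood at 11.8, 6.53, 10.5, 6.88 and 14.8 CPM in WT naive and 7.30, 7.15, 6.47, 5.97 and 7.20 CPM in S55L naive libraries. Its S55L values were close together and lay at the low end of the WT range or below it (log2 fold change -0.59 ± 0.26, adjusted p = 0.064). Nars2 was called lower without WT naive library 3 or S55L naive library 4 (adjusted p = 0.042 and 0.022), and Sars2 without WT naive library 2 or 4 (0.039 and 0.036); Vars2 was called without S55L naive library 3 (0.048). Tars2, for threonine, stood at 14.9, 17.96, 14.6, 13.8 and 15.3 CPM in WT naive and 13.6, 13.8, 12.7, 11.4 and 8.07 CPM in S55L naive libraries; the highest S55L value was just below the lowest WT value, and the adjusted p was 0.15. The other 10 members were not called, with log2 fold changes from -0.49 for Pars2, for proline, to -0.09 for Wars2, for tryptophan.

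Leaving aside Eprs, which serves both glutamate and proline, 14 amino acids have a listed gene for each compartment. They make 15 pairs, because both phenylalanyl subunits face Fars2. In naive hearts the cytosolic gene had the larger log2 fold change in 14 of 15 pairs, by a median of 1.63. The widest gap was for cysteine, with 1.73 for Cars and -0.63 for Cars2. The exception was tryptophan, with -0.21 for Wars and -0.09 for Wars2, neither called. For arginine both genes were called higher, Rars by 1.17 and Rars2 by 0.61. The remaining cytosolic and mitochondrial log2 fold changes were 1.69 and -0.12 for alanine, 1.64 and -0.35 for threonine, 1.56 and -0.19 for methionine, 1.48 and -0.24 for isoleucine, and 1.33 and -0.30 for leucine. They were 1.34 and -0.59 for asparagine, 1.37 and -0.59 for serine, 1.25 and -0.32 for tyrosine, 0.85 and -0.38 for valine, and 0.51 and -0.29 for histidine. For phenylalanine they were -0.33 for Farsa and 0.78 for Farsb against -0.38 for Fars2. Outside the 15 pairs, Eprs, at 1.50, faces Ears2 for glutamate (-0.34) and Pars2 for proline (-0.49).

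**Figure D3:**
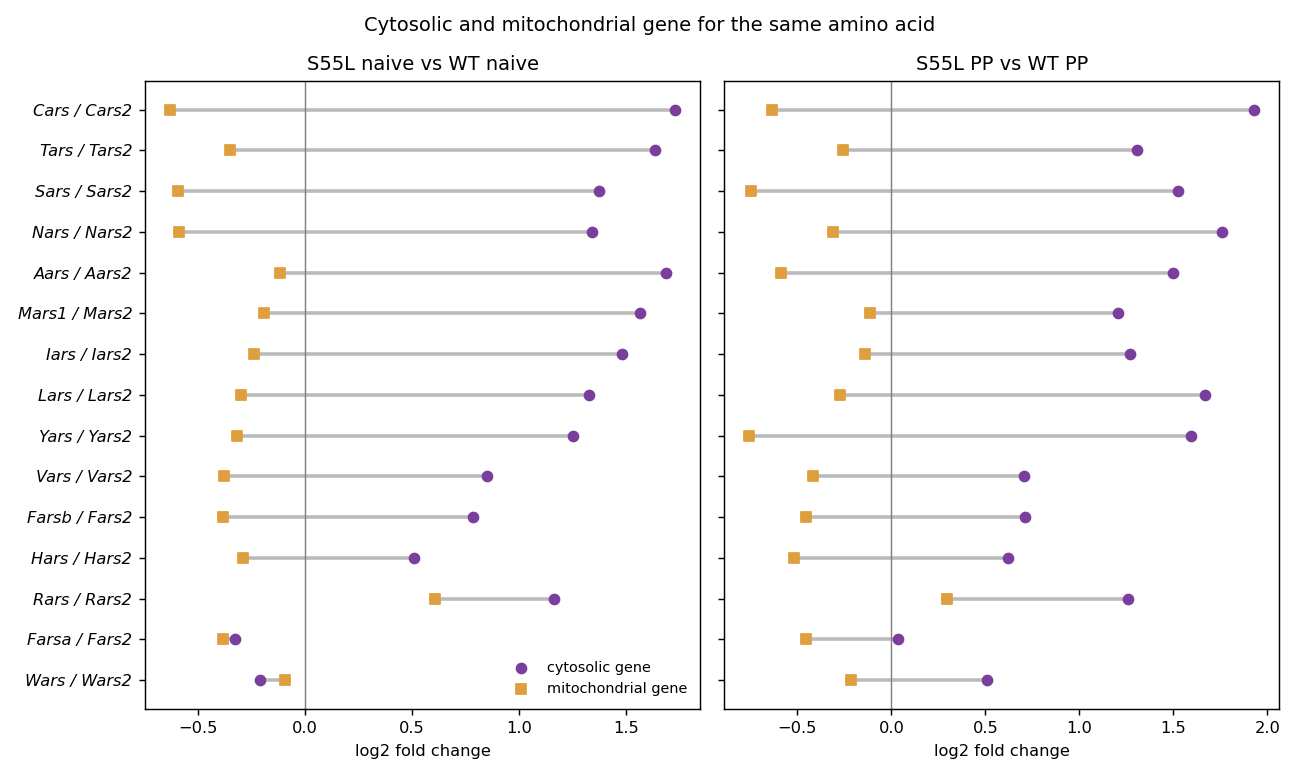
Log2 fold change (horizontal axis) of the cytosolic gene (purple circle) and the mitochondrial gene (orange square) for each of 15 pairs, in naive (left) and postpartum (right) S55L against WT hearts. The circle lies to the right of the square in 14 naive pairs and in all 15 postpartum pairs.

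The same contrast in postpartum hearts gave similar counts, from libraries that are separate from the naive ones. Of the 20 cytosolic members 15 were higher and 0 lower, beside 16.3% of all genes tested called higher and 15.2% lower. Of the 16 mitochondrial members 0 were higher and 4 lower. The median log2 fold change was 1.27 for the cytosolic and -0.29 for the mitochondrial members. Without overlap, 14 cytosolic members were higher and 3 mitochondrial members lower, beside 13.7% and 11.7% of all genes tested. Macrophage markers were higher for 11 of 12 (summed 428 to 547 CPM in WT PP and 1420 to 2530 in S55L PP), fibroblast markers for 7 of 9, and cardiomyocyte markers were lower for 9 of 10; their part was not tested.

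Gars stood at 58.0, 71.5, 56.2 and 76.4 CPM in WT PP libraries 1, 3, 4 and 5 and at 275, 470.3, 284 and 418 CPM in S55L PP libraries of the same numbers. The groups were far apart (log2 fold change 2.46 ± 0.20, adjusted p = 3.9e-10). Lars stood at 90.7, 88.2, 70.7 and 76.4 CPM in WT PP and 256, 315, 198 and 268 CPM in S55L PP libraries, again without overlap (log2 fold change 1.67 ± 0.16, adjusted p = 6.4e-09). Hars was called (log2 fold change 0.62 ± 0.20, adjusted p = 0.019) but not without WT PP library 1 or 4 or S55L PP library 5 (0.052 to 0.084). Cars (1.93 ± 0.23), Nars (1.76 ± 0.21), Eprs (1.60 ± 0.18), Yars (1.59 ± 0.22) and Sars (1.52 ± 0.41) were also called higher, with their log2 fold changes in parentheses. The 5 cytosolic members not called were Dars (0.17), Farsa (0.04), Kars (-0.39), Qars (-0.08) and Wars. Without S55L PP library 1 Kars was called lower, with an adjusted p of 0.04.

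Wars, the tryptophanyl enzyme, an interferon-inducible gene in humans, stood at 32.3, 22.3, 26.6 and 28.7 CPM in WT PP and 55.1, 33.2, 22.4 and 47.4 CPM in S55L PP libraries. S55L PP libraries 1, 3 and 5 lay above every WT PP library, and library 4 lay at the lower end of the WT range (log2 fold change 0.51 ± 0.21, adjusted p = 0.063). What a library number means is not stated, and whether libraries of the same number are paired is not known from these data. The number was fitted as a replicate block over all groups of the postpartum study, naive libraries included. With that block Wars was called (log2 fold change 0.50, adjusted p = 0.041), which made 16 cytosolic calls. Without S55L PP library 4 the adjusted p of Wars was 0.0053, and on total counts it was 0.0079. Of the 15 interferon-stimulated genes tested, 3 were higher and 1 lower in this contrast, Igtp (0.93), Ifit3 (0.98) and Cxcl9 (-1.21) among them; in naive hearts 4 were higher and 0 lower, led by Ifit3 (1.53), Igtp (0.92) and Irf7 (1.22). These counts were near the shares of all genes called higher, 16.3% in postpartum and 21.9% in naive hearts.

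Cars2 was lower in postpartum S55L hearts as well, at 49.7, 54.1, 47.7 and 36.2 CPM in WT PP and 34.7, 28.8, 27.7 and 29.3 CPM in S55L PP libraries (log2 fold change -0.63 ± 0.16, adjusted p = 0.0036, no overlap). Yars2, for tyrosine, stood at 14.5, 14.0, 15.7 and 25.1 CPM in WT PP and 12.9, 8.09, 8.35 and 12.5 CPM in S55L PP libraries. WT PP library 5 was the highest, and without it the log2 fold change was -0.50 (adjusted p = 0.18), beside -0.76 ± 0.27 and 0.031 with it. Fars2 stood at 57.0, 72.6, 50.1 and 64.2 CPM in WT PP and 43.0, 46.3, 38.2 and 50.8 CPM in S55L PP libraries, which overlapped through WT library 4 and S55L library 5 (log2 fold change -0.45 ± 0.16, adjusted p = 0.029). Sars2 stood at 12.7, 12.3, 15.7 and 7.17 CPM in WT PP and 10.6, 5.84, 5.92 and 5.61 CPM in S55L PP libraries, with S55L library 1 apart from the other 3 (log2 fold change -0.75 ± 0.28, adjusted p = 0.044). Leaving out WT PP library 3 or 5 or S55L PP library 1, 3 or 4 ended the Fars2 call (adjusted p = 0.05 to 0.11), leaving out WT PP library 1, 3 or 4, S55L PP library 3, 4 or 5, WT naive library 3 or S55L naive library 2 ended that of Sars2 (0.05 to 0.14), and leaving out WT PP library 5 or S55L PP library 3 or 4 ended that of Yars2 (0.085 to 0.18). On total counts none of these 4 was called. In the pairs, the cytosolic gene had the larger log2 fold change in 15 of 15, by a median of 1.41.

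The plate column and the genotype can be told apart only through column 2. With the groups in the fit, the step from column 1 to column 2 rests on WT PP 1 against the other WT PP libraries alone. The step from column 2 to column 3 rests on S55L PP 5 against the other S55L PP libraries. Every naive value under the plate term therefore depends on WT PP 1, whose counts were deposited under a further WT PP column as well. There, WT PP 1 had a summed cytosolic level of 798 CPM, S55L PP 5 had 2240 CPM, and the 5 S55L naive libraries had 1723 to 2524 CPM. With the plate column as a term, 11 cytosolic members were higher in naive and 13 in postpartum S55L hearts, and 1 mitochondrial member was lower in each, Iars2. Gars, Tars, Iars, Mars1, Lars and Eprs were called higher under that term in both comparisons, and the calls of Nars, Vars, Hars, Sars, Qars, Cars2, Fars2 and Rars2 in naive hearts and of Sars, Vars, Cars2, Fars2, Sars2 and Yars2 in postpartum hearts were lost. The loss of a call was not always a smaller log2 fold change: under the term it was larger for Hars (0.70) and Cars2 (-0.75) in naive hearts and for Cars2 (-0.76) and Sars2 (-1.17) in postpartum hearts, and it was 0.58 for Rars2 in naive hearts, close to that without the term. It was smaller for Nars (0.92), Sars (0.98), Vars (0.70), Qars (-0.26) and Fars2 (-0.25) in naive hearts and for Sars (0.56), Vars (0.40), Fars2 (-0.16) and Yars2 (-0.22) in postpartum hearts.

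The summed reads give one view of both compartments per library. The ratio of summed cytosolic to summed mitochondrial synthetase reads was 2.15, 2.37, 2.50, 2.86 and 2.48 in WT naive libraries 1 to 5, and 9.002, 7.87, 6.52, 6.89 and 6.98 in S55L naive libraries 1 to 5. It was 2.12, 2.19, 2.35 and 2.72 in WT PP and 7.23, 8.75, 6.53 and 7.98 in S55L PP libraries 1, 3, 4 and 5. The means were 2.47 ± 0.258 (SD, n = 5) in WT naive, 2.34 ± 0.269 (n = 4) in WT PP, 7.45 ± 0.998 (n = 5) in S55L naive and 7.62 ± 0.956 (n = 4) in S55L PP. In the postpartum study no S55L library fell below 6.52 and no WT library rose above 2.86. Summed cytosolic levels in that study ran from 761 to 866 CPM in WT and from 1641 to 2524 CPM in S55L libraries. Its summed mitochondrial levels ran from 298 to 377 CPM in WT and from 252 to 295 CPM in S55L libraries.

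**Figure D4:**
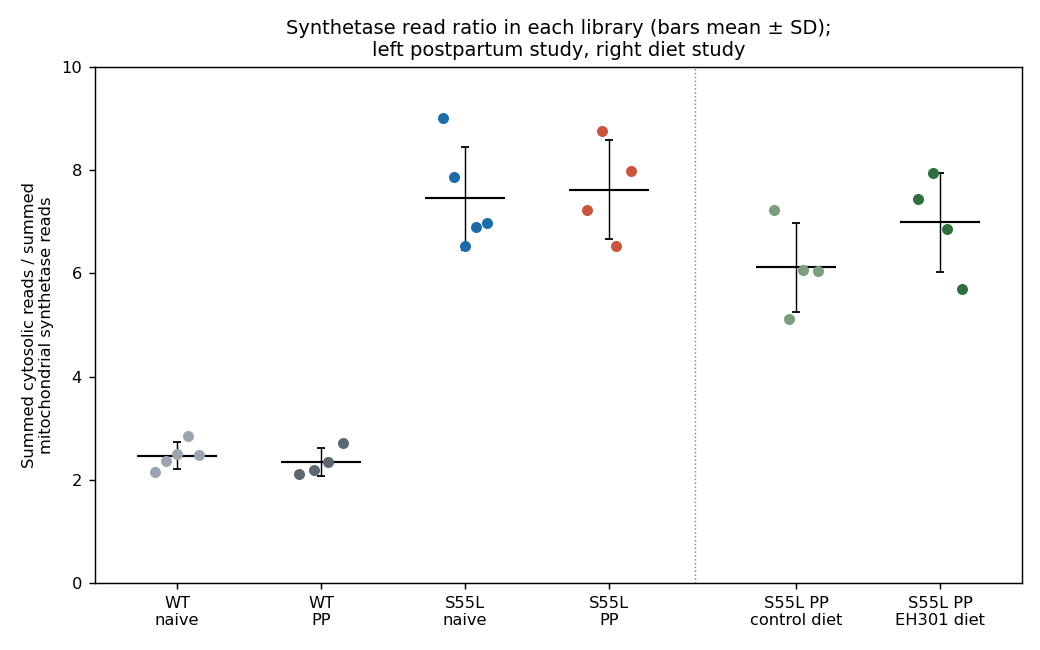
Ratio of summed cytosolic to summed mitochondrial synthetase reads (vertical axis, from 0) in each library of the 6 groups, with the mean and SD. WT libraries lie between 2.12 and 2.86, S55L libraries of the postpartum study between 6.52 and 9.002, and the diet libraries, all S55L, between 5.11 and 7.94; the studies were counted separately.

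Genes around the synthetases on the charging pathway were read from lists, whose counts stand beside 21.9% higher and 21.6% lower over all genes tested in naive and 16.3% and 15.2% in postpartum hearts. Of 17 tested genes for tRNA end processing and export 3 were higher and 1 lower in naive S55L hearts: Xpot, the tRNA exporter (2.12, adjusted p = 5.3e-11), Xpo5 (0.86), the splicing endonuclease subunit Tsen34 (0.64), and Pop5 of RNase P, lower by -0.54. In postpartum hearts 3 were higher and 0 lower, and Xpot had a log2 fold change of 1.55; the counts of this list were below the shares over all genes in naive hearts, and the count higher was near that share in postpartum hearts. Of 18 genes for cytosolic tRNA modification 5 were higher and 0 lower in naive hearts, led by the methyltransferase subunits Trmt61a (1.67) and Trmt6 (1.02) and by Wdr4 (1.02), and 4 were higher in postpartum hearts. The counts higher of this list were near the shares over all genes. Its median log2 fold change was 0.11 in naive and 0.31 in postpartum hearts.

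Of 13 tested genes of tRNA-charging sensing and ATF4, 8 were higher and 1 lower in naive and 7 higher and 0 lower in postpartum S55L hearts. Chac1, a glutathione-degrading enzyme, had log2 fold changes of 3.80 and 3.96. Atf4 itself had 2.68 and 2.02, and Asns, asparagine synthetase, 6.40 and 5.28. Atf4 stood at 36.1 to 98.3 CPM in WT and at 195 to 336 CPM in S55L libraries of the postpartum study. Eif2ak4, the kinase Gcn2 that senses uncharged tRNA, was not called (-0.29 and -0.08). Charging of tRNA was not measured, and the cause of the Atf4 values was not tested.

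On the mitochondrial side, 0 of 11 genes listed as translation factors were higher and 4 lower in naive hearts: the initiation factor Mtif2 (-1.21, adjusted p = 1.7e-05), the elongation factor Tufm (-1.78), Gfm2 (-0.51), which recycles ribosomes, and Mief2 (-1.29), which acts in mitochondrial fission and not in translation. In postpartum hearts 3 were lower, Mtif2 (-1.01), Mief2 (-0.93) and Tufm (-0.93). Of 13 mitochondrial tRNA processing and modification genes 1 was higher, Trit1 (1.06), and 1 lower, Trmt5 (-0.66), in naive hearts, and 1 was higher and 2 lower in postpartum hearts. In naive hearts both counts were below the shares over all genes. The amidotransferase of Gatb, Gatc and Qrsl1 completes mitochondrial glutaminyl-tRNA after Ears2 has loaded glutamate; Qrsl1 was lower in naive hearts (-0.41, adjusted p = 0.049), and none of the 3 was called in postpartum hearts. Of 12 tested genes encoded by mitochondrial DNA 11 were lower in each comparison. Genes encoded there held 9.52% to 15.5% of S55L and 16.8% to 24.6% of WT reads on genes in the postpartum study. Their part in the mitochondrial members' values was not tested.

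Among cytosolic translation factors, 5 of 14 initiation factors were higher and 2 lower in naive hearts, led by Eif4ebp1, an inhibitor of the cap-binding factor (0.94), Eif2s1 (0.84) and Eif2s2 (0.68), and 6 were higher and 0 lower in postpartum hearts. Of 8 elongation factor genes 2 were higher and 1 lower in each comparison, with Eef1a2 at -0.90 and -0.75. Of 7 tested synthetase-like and editing genes 1 was higher and 2 lower in naive and 1 higher and 1 lower in postpartum hearts; the lower ones were Tarsl2 and Prorsd1 (-0.48) in naive and Tarsl2 (-0.85) in postpartum hearts. The elongation factor and synthetase-like lists are too short to be set apart from the shares over all genes. Of the 3 scaffolds Eef1e1 was higher in postpartum hearts too (0.87).

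No member was called between postpartum and naive hearts of either genotype, nor in the genotype by postpartum interaction. In WT, 0 of 36 members were called, beside 0.0167% of all genes tested, and 0 members had an unadjusted p below 0.05, beside 6.33% of all genes. In S55L, 0 of 36 were called, beside 0% of all genes, and 3 members, Hars, Mars1 and Wars, had an unadjusted p below 0.05, beside 6.25% of all genes. In the interaction 0 members were called, beside 0% of all genes, and Wars alone had an unadjusted p below 0.05 (log2 0.72 ± 0.28, unadjusted p = 0.016, adjusted p = 1), beside 3.72% of all genes. The DESeq2 test and limma voom also called 0 members in these comparisons. The median log2 fold change from naive to postpartum was -0.086 for cytosolic and 0.0082 for mitochondrial members in WT, and 0.047 and 0.041 in S55L.

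Some members can be followed across all 4 groups. Gars averaged 58.7 ± 9.96 CPM (SD) in WT naive (n = 5), 65.5 ± 9.95 in WT PP (n = 4), 372 ± 76.8 in S55L naive (n = 5) and 362 ± 97.6 in S55L PP (n = 4). Qars averaged 35.4 ± 4.70 CPM in WT naive, 33.9 ± 5.40 in WT PP, 25.1 ± 3.49 in S55L naive and 31.9 ± 6.84 in S55L PP. Qars was thus lower without overlap in the naive comparison, while the postpartum groups overlapped, and the interaction was not called (log2 0.41 ± 0.24, adjusted p = 1). Wars averaged 32.8 ± 2.38 CPM in WT naive, 27.5 ± 4.16 in WT PP, 28.2 ± 3.56 in S55L naive and 39.5 ± 14.6 in S55L PP, and the S55L PP libraries spread the most.

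In the diet study 35 members were tested, since Pars2 did not pass the filter on low counts, and none was called. By the edgeR test 0 of 20 cytosolic and 0 of 15 mitochondrial members differed between EH301 and control diet, beside 0% of 10335 genes tested. No member had an unadjusted p below 0.05, beside 1.33% of all genes, and the DESeq2 test and limma voom called 0 members. The median log2 fold change was 0.15 for the cytosolic members (range -0.26 to 0.52) and -0.089 for the mitochondrial ones (range -0.65 to 0.33), beside 0.021 over all genes tested. The largest in size was Aars2, at -0.65 ± 0.33, which stood at 42.3, 19.6, 16.0 and 19.5 CPM in control diet libraries 1 to 4 and 10.4, 18.5, 11.5 and 16.8 CPM in EH301 diet libraries 7 to 10. The groups overlapped, and control diet library 1 was the highest.

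Gars stood at 418, 345, 391 and 439 CPM in control diet and 328, 698, 476 and 309 CPM in EH301 diet libraries, which overlapped (log2 fold change 0.18 ± 0.31). Farsb stood at 952, 238, 279.5 and 338 CPM in control diet and 235, 689.8, 259.9 and 314 CPM in EH301 diet libraries, with libraries 1 and 8 far above the other 6. Those 2 libraries had the fewest reads, summed cytosolic levels of 3837 and 4012 CPM against 1955 to 2590 in the others, and 6.95% and 11.9% of reads from mitochondrial DNA against 16.9% to 24.6%. Their macrophage markers summed to 4320 and 5260 CPM against 1610 to 2830. Without both libraries 0 members were called, and the medians were 0.096 and -0.13.

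The cytosolic to mitochondrial read ratio was 7.22, 5.11, 6.07 and 6.05 in control diet libraries 1 to 4 and 7.43, 7.94, 6.86 and 5.71 in EH301 diet libraries 7 to 10. The means were 6.11 ± 0.862 (SD, n = 4) and 6.99 ± 0.961 (n = 4), and the groups overlapped. The cytosolic gene had the larger log2 fold change in 12 of 15 pairs, by a median of 0.25. All tested members of the other pathway and marker lists were likewise not called between the diets.

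**Figure D5:**
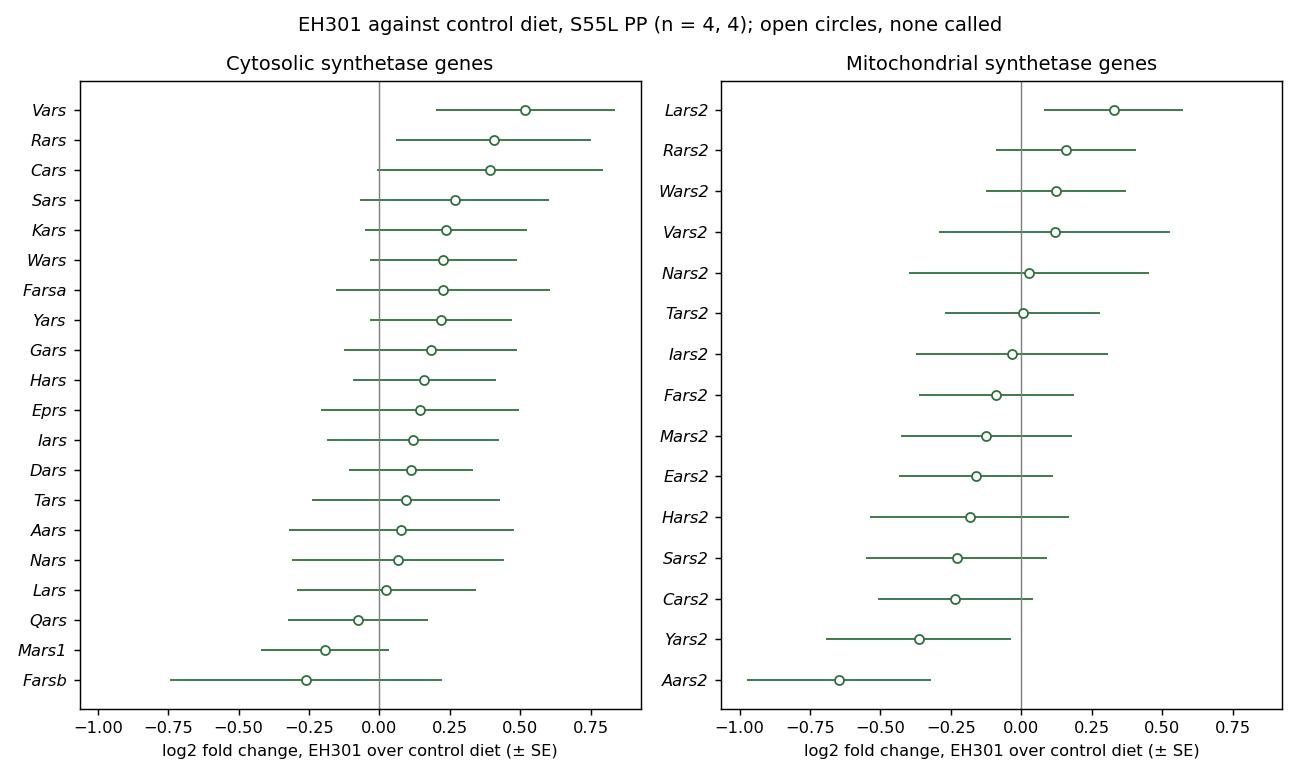
Log2 fold change (horizontal axis, with the standard error) of 20 cytosolic and 15 mitochondrial synthetase genes in EH301 over control diet hearts, S55L postpartum, n = 4 libraries each. None is called; the values run from -0.26 to 0.52 for the cytosolic and from -0.65 to 0.33 for the mitochondrial genes.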

How the data were processed

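The deposited values were raw read counts per gene, which the authors made with Trimmomatic 0.39, STAR 2.7.0f and HTSeq 0.6.1 per the submitters' processing notes, which name the build GRCm39.p6; the annotation and strand setting are not given in the sources used here, so overlapping and antisense genes are uncertain. RNA was taken with the RNeasy Mini kit and libraries made with the QuantSeq 3' FWD kit, per the labels' protocols. Symbols came from GENCODE M21 (GRCm38) by Ensembl ID without version, for 51487 and 52073 IDs, and promoter sequences from RefSeq (GRCm38.p6). The summary lines of HTSeq were left out of all sums and tests: reads on genes were 57.5% to 69.2% of reads.

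Counts were filtered with filterByExpr, scaled by TMM and analysed in R 4.3.3 by the robust quasi-likelihood test of edgeR 4.0.16, adjusting by Benjamini-Hochberg over 11945 genes of the postpartum study (4 groups in one fit, 18 libraries) and 10335 of the diet study (8 libraries), at a threshold of 0.05. CPM use the TMM-scaled library sizes. SE is the log2 fold change over the root of its F statistic. Identical columns were found by comparing all pairs. Nothing in the labels says that each library came from its own mouse, and p-values rest on the spread between libraries alone. The test was checked on simulated counts. The members and lists were chosen with earlier results of these data known, and medians and counts over them are descriptions. Values in every library are given for the 6 cytosolic and 6 mitochondrial members with the lowest adjusted p in the naive comparison; of each pathway list up to 3 called genes with the lowest adjusted p are named. Per-library values of Qars, Wars, Yars2 and Farsb, the postpartum values of Gars, Lars, Cars2, Fars2 and Sars2, the diet values of Gars and Aars2, and the genes Iars2, Gatb, Gatc, Eif2ak4, Aimp1, Aimp2, Pop5 and Gfm2 were added after their values were seen. The gene called higher in the list of synthetase-like and editing genes is not reported here.

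Deviations from the group mean were correlated between WT PP and S55L PP libraries of the same number (r = 0.119 to 0.333, 4 pairs). Libraries of unlike number were not compared, so this check cannot show pairing. The largest r, 0.356, was between WT naive 1 and WT PP 1. The meaning of a number is not stated, and the main tests leave it out. No other pair of groups had all correlations above 0.1. The replicate block was nonetheless fitted over all 4 groups, so that naive libraries were also joined by number. Alternatives were DESeq2 size factors, total counts, removal of mitochondrially encoded genes, no filter, the DESeq2 1.42.0 test, limma 3.58.1 voom with quality weights, the plate column as a term, the replicate block, only the compared groups, counts thinned to the smallest library, all deposited columns, the column under both diets kept under either, no diet libraries under 1200000 reads, and leaving out each library.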

Additional observations from a re-analysis of the deposited data

Results flagged for a closer look

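Single libraries stood far from the rest of their group in 16 of 234 checks, where chance flags about 1 in 20. The checks covered, in each group, every member, the read ratio and the summed cytosolic and mitochondrial levels. All 16 flagged checks were of members. Control diet library 1, the one with the fewest reads, was high for 5 of them: Aars2 at 42.3 CPM, Cars at 77.9, Farsb at 952, Hars2 at 51.2 and Mars2 at 15.6. EH301 diet library 8 was high for Nars, at 673 CPM beside 295 to 345 in the others. In WT naive, Eprs was low in library 3 (82.5 CPM), and Pars2 (7.73 CPM) and Yars2 (18.5 CPM) were high in library 1. In WT PP, Sars was low (20.4 CPM) and Yars2 high (25.1 CPM) in library 5, and Tars2 was high in library 3 (21.8 CPM). In S55L naive, Rars2 was low in library 3 (16.5 CPM). In S55L PP, Hars2 was low (5.31 CPM) and Sars2 high (10.6 CPM) in library 1, and Mars2 was low in library 4 (5.92 CPM). Most of the mitochondrial members among these rest on few reads.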

How the results depend on the processing

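No median changed sign between S55L and WT, and the count of cytosolic calls stayed within 1.5 times of the reported one in every alternative run. On total counts the median of all genes shifted by 0.244 in naive and 0.27 in postpartum hearts, and the calls over all genes became 33.6% higher and 12.4% lower (21.9% and 21.6% with TMM) and 28.9% higher and 8.18% lower (16.3% and 15.2% with TMM). On that scale the cytosolic medians were 1.54 in both, the mitochondrial ones -0.084 and -0.017, and 0 mitochondrial members were called postpartum. With no filter the naive medians were 1.42 and -0.20, and 1 mitochondrial member was called postpartum. With the plate column as a term the naive cytosolic median was 1.05, the postpartum mitochondrial median -0.19, the interaction's mitochondrial median 0.089, and mitochondrial calls were 1 in each comparison. Thinned counts left 1 naive and 2 postpartum mitochondrial calls, and only the groups compared left 2 postpartum. Voom gave a postpartum mitochondrial median of -0.40, and all deposited columns gave 0.14 for S55L PP against S55L naive. Without the 2 members with the most reads per compartment the ratios were 8.54 (S55L naive), 8.80 (S55L PP), 3.37 (WT naive) and 3.05 (WT PP). The causes were not tested.

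Leaving out each library gave 1 to 4 mitochondrial calls in both genotype comparisons; the naive count was 1 without WT naive 5, and the postpartum count was 1 without S55L PP 3 or 4 and 2 without WT PP 3 or 5. Cytosolic calls ran from 14 to 16 in both. Medians ran from -0.41 to -0.22 (postpartum mitochondrial), 0.0011 to 0.12 (mitochondrial, WT PP against naive), 0.013 to 0.19 (cytosolic, S55L PP against naive) and -0.12 to 0.045 (mitochondrial, interaction). With the replicate block 16 cytosolic and 3 mitochondrial members were called in naive and 16 and 4 in postpartum hearts, and the block changed no call other than that of Wars. A plate term could not be fitted in the diet study. On postpartum study counts thinned to the smallest library, the naive calls of Hars, Qars, Fars2 and Rars2 were lost (edgeR test, adjusted p = 0.053 to 0.1). The postpartum calls of Hars, Fars2 and Sars2 were lost as well (0.051 to 0.13). Whether more reads would add calls was not tested.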
